A study of Homo sapiens with 8 samples.

Results

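Phenylalanine tRNA with the anticodon GAA (tRNA-Phe-GAA) was followed in 8 iCLIP libraries made with the dihydrouridine synthases DUS1L and DUS2L. Its members were every crosslink site on the sense strand of a reference named for tRNA-Phe in the deposited site lists. They comprised 5 references that stand for 10 genes, out of 252 tRNA references and 413 tRNA genes in the lists. On these references 102 sites, each a reference and a position, held at least 1 count in some library, of 16258 sites over all references. tRNA-Phe-GAA was 1 of 55 families into which the references were summed, 50 of them tRNAs and the rest ribosomal.

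The cells were Flp-In T-Rex 293, an established human line of embryonic kidney origin with a tetracycline-inducible transgene. The transgene coded for 3xFLAG-DUS1L or 3xFLAG-DUS2L, and every group received 1 µg/mL tetracycline, for 12 h before treatment and during it. Treated cells then received 100 µM 5-chlorouridine (5-ClUrd), a uridine analogue, for 12 h, and untreated cells did not. The 4 groups were untreated DUS1L, 5-ClUrd-treated DUS1L, untreated DUS2L and 5-ClUrd-treated DUS2L, with 2 libraries in each. The tagged proteins were expressed from a transgene in 1 cell line, and no cell type markers were analysed here because the site lists cover tRNA and rRNA references.

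Dihydrouridine synthases reduce uridine to dihydrouridine, mainly in the D loop of tRNA. DUS1 enzymes are known for positions 16 and 17 and DUS2 enzymes for position 20, and a 5-halogenated uridine can trap such an enzyme on its RNA as a covalent adduct. In iCLIP the protein is pulled down with the RNA joined to it, and the end of the cDNA is read as the crosslink site. Mature phenylalanine tRNA carries a wybutosine-type base at position 37, next to the anticodon, a bulky modification known to hinder reverse transcription. A methylated guanosine at position 26, the hinge between the D arm and the anticodon arm, is common in eukaryotic tRNAs.

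The sequence is shown because the results turn on 5 of its positions, 15, 16, 25, 26 and 37, which are in capitals. It is that of the gene TRF-GAA1-5 in RefSeq's GRCh38.p14 tables, chr13:94549650-94549722 on the minus strand, which is annotated as a tRNA gene.
TRF-GAA1-5: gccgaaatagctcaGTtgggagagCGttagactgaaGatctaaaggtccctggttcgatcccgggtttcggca
Its 4 stems pair fully (7 acceptor, 4 D, 5 anticodon and 5 T pairs), so positions counted from the 5′ end of this 73-nt gene equal the standard tRNA positions over the range that held counts. The D loop, positions 14 to 21, has T residues at 16 and 17, in capitals, and a G at position 20. The anticodon loop, positions 32 to 38, has the anticodon in capitals.
D loop: agTTggga
Anticodon loop: ctGAAga

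Of all tRNA-Phe counts, 98.3% (56920) lay on the reference shared by the 6 genes of the Phe-GAA-1 group, at positions 4 to 56. RefSeq places these genes (TRF-GAA1-1 to TRF-GAA1-6) at chr6:28790722-28790794, chr6:28981672-28981744, chr11:59557497-59557569, chr12:124927843-124927915, chr13:94549650-94549722 and chr19:1383362-1383434. Counts on that reference cannot be assigned to 1 of the 6 genes. Phe-GAA-4-1 held 496 counts, Phe-GAA-3-1 329, Phe-GAA-6-1 140 and Phe-GAA-2-1 4. The highest site of Phe-GAA-4-1 was position 39, with 5 and 0 counts in untreated and 189 and 77 in 5-ClUrd-treated DUS1L libraries, and 0 in all 4 DUS2L libraries. Phe-GAA-3-1 had counts at positions 2 to 5 and nowhere else, and only in DUS1L libraries. The 4 counts of Phe-GAA-2-1 came from position 5 of 1 library, 5-ClUrd-treated DUS1L replicate 2. Phe-GAA-4-1 and Phe-GAA-6-1 are 74 nt long in RefSeq, so their positions are not aligned to those of the sequence shown.

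The libraries differed in depth. Sense counts ranged from 7369 (untreated DUS1L replicate 2) to 824657, the other untreated DUS1L library held 144322, and the other 6 held at least 130011. The highest count at any site of a library lay between 1061 and 1436, except in untreated DUS1L replicate 2, where it was 555; it did not scale with the total. Only the DUS2L site lists are named as mapped to non-coding RNA beforehand, so the enzyme and the making of the file cannot be told apart in any comparison of DUS1L with DUS2L.

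tRNA-Phe-GAA took a much larger share of sense counts with DUS1L than with DUS2L. In untreated DUS1L it held 4379 and 1090 counts, which is 3.03% (95% Wilson interval 2.95 to 3.12) and 14.8% (14 to 15.6) of the library. In 5-ClUrd-treated DUS1L it held 32275 and 17362 counts, or 3.91% (3.87 to 3.96) and 3.20% (3.15 to 3.25). In untreated DUS2L it held 294 and 330 counts, or 0.226% (0.202 to 0.253) and 0.192% (0.172 to 0.214). In 5-ClUrd-treated DUS2L it held 1105 and 1054 counts, or 0.298% (0.281 to 0.316) and 0.290% (0.273 to 0.308). These intervals cover counting error only. Whether PCR copies were collapsed is not given, and copies of the same molecule would not be independent. Each DUS1L library lay above every DUS2L library, the treated DUS2L libraries lay above the untreated ones, and the treated DUS1L libraries lay between the 2 untreated ones.

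**Figure D1:**
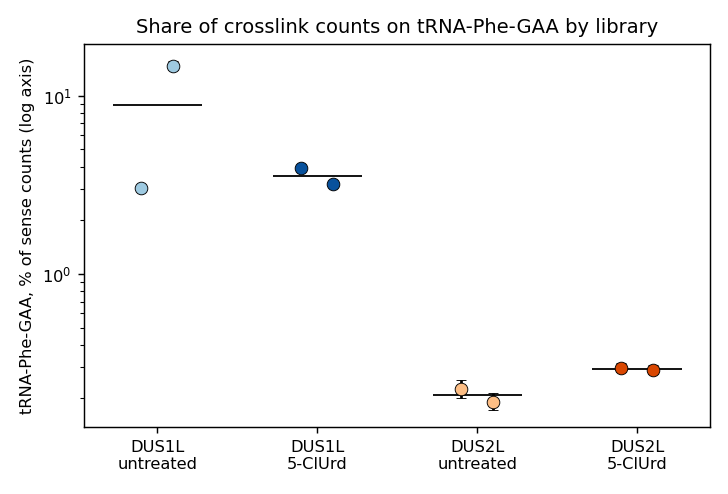
Share of sense counts on tRNA-Phe-GAA in each of 8 libraries (points, log axis), with 95% Wilson intervals (bars, often smaller than the point) and the mean of each group (line). The 4 DUS1L libraries sit between 3.03% and 14.8%, and the 4 DUS2L libraries between 0.192% and 0.298%.

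Ordered by mean share, untreated DUS1L came first at 8.91% ± 8.31 (SD, n = 2), followed by treated DUS1L at 3.56% ± 0.505, treated DUS2L at 0.294% ± 0.00538 and untreated DUS2L at 0.209% ± 0.0243. The first pair of neighbours did not differ beyond their spread. Among families with counts, tRNA-Phe-GAA ranked 10 and 2 in untreated DUS1L, 7 and 10 in treated DUS1L, 40 and 40 in untreated DUS2L, and 47 and 49 in treated DUS2L. Its rank in DUS2L was thus lower after treatment although its share was higher, and the median family share was 0.776% and 0.840% without and 1.39% and 1.24% with 5-ClUrd.

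Without 5-ClUrd, tRNA-Phe-GAA was lower in DUS2L than in DUS1L libraries (log2 fold change -5.41, SE 0.75, adjusted p = 0.000318, edgeR quasi-likelihood test with Benjamini-Hochberg adjustment over families). In that comparison 89.1% of families passed the same threshold of an adjusted p below 0.05. With 5-ClUrd the log2 fold change between the enzymes was -3.60 ± 0.69 (adjusted p = 0.00243, edgeR), in a comparison in which 65.5% of families passed. The call of both held when any of the 8 libraries was left out, and the value lay between -6.15 and -3.86 without and between -3.73 and -3.44 with 5-ClUrd. With sites above 500 counts in any library left out, which removes most of the tRNA-Phe counts, the values were -7.99 and -6.57, both called. In untreated DUS1L this left 6.67% and 4.77% of the tRNA-Phe counts, and in treated DUS1L 22.3% and 16.8%. In DUS2L libraries 1.82% to 2.38% were left. The larger values are therefore largely set by which sites were removed, and they do not add to the result. The comparisons of the enzymes share libraries with those of the treatment, which follow.

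In DUS1L cells the family did not pass the test for a treatment effect. Its log2 fold change was -1.32 ± 0.66 (adjusted p = 0.152, edgeR), where 24.5% of families were called, 22.6% as higher and 1.89% as lower, against a median of 1.35 over all families. The value rests on untreated DUS1L replicate 2, the library with 7369 counts: without it the log2 fold change was 0.23 and of the other sign, and without untreated replicate 1 it was -2.06 with an adjusted p of 1.11e-18 from edgeR. It was also called without treated replicate 1, at -1.48 (adjusted p = 0.0382, edgeR). Scaling by TMM in place of the library totals gave -2.31 (adjusted p = 0.00407, edgeR). The Wald test of DESeq2 gave -2.64 (adjusted p = 0.000613).

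In DUS2L cells the log2 fold change with 5-ClUrd was 0.49 ± 0.21 (adjusted p = 0.0700, edgeR), which did not pass, while 76.4% of families did, 52.7% as higher and 23.6% as lower. The median over all families was 0.86, and relative to it tRNA-Phe-GAA was at -0.36 on the log2 scale. With TMM scaling its value was -0.16, of the other sign and not called. The treatment effect in DUS2L minus that in DUS1L was 1.81 ± 0.89 (adjusted p = 0.141, edgeR, 29.1% of families called) and so was not shown to differ between the enzymes. Without untreated DUS1L replicate 1 it was 2.55 (adjusted p = 0.000381) and without untreated DUS1L replicate 2 it was 0.27 (adjusted p = 0.519).

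Position 37 was the highest position of tRNA-Phe in all 4 groups. On the Phe-GAA-1 reference it held 1125 and 555 counts in untreated DUS1L, 1269 and 1061 in treated DUS1L, 219 and 267 in untreated DUS2L, and 564 and 555 in treated DUS2L. It was the highest site of the whole library in untreated DUS1L replicate 2 and in both treated DUS1L libraries. Its mean share of the tRNA-Phe counts was 38.3% ± 17.8 (SD, n = 2) in untreated and 5.07% ± 1.57 in treated DUS1L, and 77.7% ± 4.54 in untreated and 51.9% ± 1.21 in treated DUS2L. The share was thus lower with 5-ClUrd for both enzymes, and the treated and untreated libraries of an enzyme did not overlap.

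The median share of position 37 over families with at least 50 counts was 0 to 1.09% in the 8 libraries, and tRNA-Phe-GAA ranked first to eighth among 21 to 49 such families. It ranked 1 and 1 in untreated DUS2L and 1 and 2 in treated DUS2L, but 8 and 8 in treated DUS1L. In the other tRNAs pooled, position 37 held 6.34% and 14.2% of counts in untreated DUS1L, 2.82% and 3.88% in treated DUS1L, and 2.35% to 4.51% in DUS2L libraries. Positions of the other tRNAs were counted from the 5′ end of each reference and were not aligned to standard tRNA positions. The median, ranks and pooled values may therefore compare unlike bases.

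**Figure D2:**
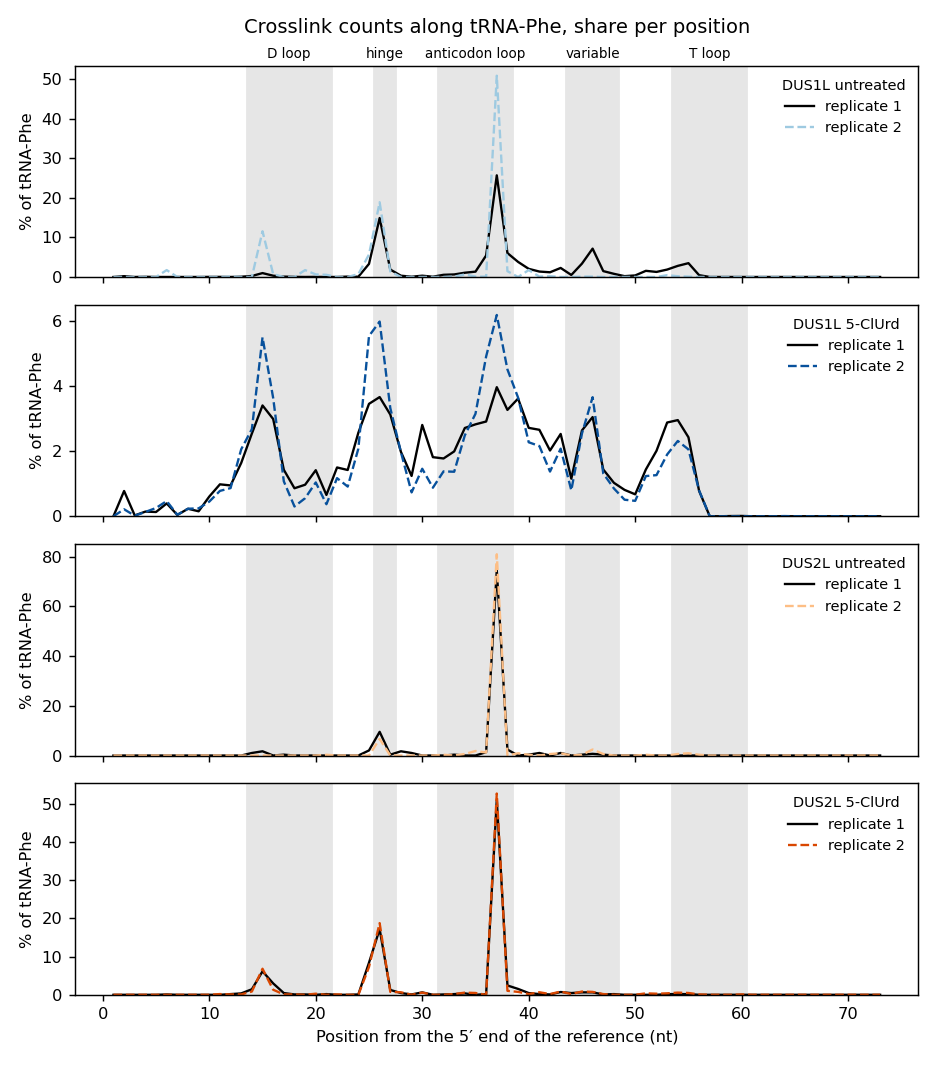
Share of the tRNA-Phe counts of a library at each position from the 5′ end (nt), summed over references, in the 4 groups (panels, with their own vertical axes) and 2 replicates (lines); grey bands mark regions of the tRNA. Position 37 reaches 25.7% and 50.9% in untreated DUS1L, 3.96% and 6.17% in treated DUS1L, 74.5% and 80.9% in untreated DUS2L, and 51.0% and 52.8% in treated DUS2L.

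Position 26, the hinge guanosine, was the next highest in every group by mean share. It held 650 and 206 counts in untreated DUS1L, 1173 and 1031 in treated DUS1L, 28 and 22 in untreated DUS2L, and 190 and 198 in treated DUS2L. As a share of tRNA-Phe counts this was 16.9% ± 2.82 and 4.81% ± 1.64 (SD, n = 2) in untreated and treated DUS1L, and 8.10% ± 2.02 and 18% ± 1.13 in untreated and treated DUS2L. The share was lower after 5-ClUrd in DUS1L libraries and higher in DUS2L libraries, with no overlap in either.

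Position 25, the last base of the D stem, held 145 and 62 counts in untreated DUS1L, 1100 and 959 in treated DUS1L, 5 and 0 in untreated DUS2L, and 93 and 77 in treated DUS2L. Position 15, the base before the T residues of the D loop, held 36 and 126 counts, 1071 and 939, 5 and 0, and 68 and 72 in the same order. Position 16, the first of those T residues, held 9 and 8 counts in untreated and 951 and 616 in treated DUS1L, and 0 and 0 in untreated and 33 and 14 in treated DUS2L. After 37 and 26, the top 5 positions by mean share were 15, 25 and 38 in untreated DUS1L, 25, 15 and 36 in treated DUS1L, 46, 36 and 38 in untreated DUS2L, and 25, 15 and 16 in treated DUS2L.

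The counts were spread over many positions in treated DUS1L and over few elsewhere. The positions needed to hold 50% of the tRNA-Phe counts numbered 4 and 1 in untreated DUS1L, 16 and 12 in treated DUS1L, and 1 in each DUS2L library. In treated DUS1L 26 and 11 tRNA-Phe sites held at least 50% of the highest site count of the library, against 2 and 1 in untreated DUS1L and 0 in all DUS2L libraries. Whether the highest site count limited the flat profile of the treated DUS1L libraries was not tested.

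Single sites were then tested across all references, on 68 tRNA-Phe sites in DUS1L and 20 in DUS2L that had enough counts. In DUS1L 18 of the 68 passed, where 34% of all sites did. With 5-ClUrd 16 were higher, as 31.7% of all sites were, and 2 were lower, as 2.31% of all sites were. The median log2 fold change was 1.3 over the tRNA-Phe sites and 3.55 over all sites. The 2 sites that fell were position 37, by 4.57 on the log2 scale (SE 0.97, adjusted p = 0.00313, edgeR), and position 26, by 3.28 (SE 1.00, adjusted p = 0.0112, edgeR). In the DUS1L libraries position 37 held 1125, 555, 1269 and 1061 counts, where the highest site of the library held 1248, 555, 1269 and 1061. Position 26 held 1173 and 1031 in the treated ones. Whether the highest site count, which did not scale with depth, set the falls of positions 37 and 26 was not tested. Without untreated DUS1L replicate 2 the log2 fold changes were -2.16 (adjusted p = 5.08e-05) and -1.44 (adjusted p = 0.00983), and the call of position 26 was lost without treated replicate 1 (adjusted p = 0.0821).

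The 16 sites that rose in DUS1L lay between positions 5 and 31 of the Phe-GAA-1 reference, from the acceptor stem to the 5′ side of the anticodon stem. The 3 with the largest fitted change, positions 22, 8 and 9, had no count in either untreated library. Position 22 had 483 and 203 counts in treated libraries, at least 25.4-fold higher than a floor of 3 counts over the untreated group. Position 8 had 74 and 40, at least 4.22-fold higher, and position 9 had 49 and 42, at least 3.37-fold higher. Of the 16 sites, 4 had no untreated count and 7 had 1 to 3, so depth of the untreated libraries limits these folds. Only positions 14, 28 and 30 reached the minimum of 10 counts over the untreated group, with 10, 14 and 14. The others could be tested only through their treated counts, so the direction of this count is largely set by the minimum count. The number of called sites was 9 without untreated DUS1L replicate 1, 30 without untreated replicate 2, and 6 without either treated library.

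Positions 15, 16 and 25 did not pass in DUS1L (adjusted p = 0.0683, 0.364 and 0.222, edgeR). At position 15 the 2 untreated libraries stood on opposite sides of the treated ones, with 0.982% and 11.6% of tRNA-Phe counts against 3.40% and 5.49%. Its log2 fold change was 2.60 without untreated replicate 2 and -3.50 without untreated replicate 1.

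In DUS2L 3 of the 20 sites passed, where 31.9% of all sites did, and all 3 were higher with 5-ClUrd, as 14.9% of all sites were. The median log2 fold change was 1.03 over the tRNA-Phe sites and 0.16 over all sites. Position 25 rose by 3.67 ± 1.19 on the log2 scale (SE, adjusted p = 0.0128, edgeR) and position 15 by 3.39 ± 1.21 (adjusted p = 0.0236, edgeR). Position 16 had no untreated count, and its 47 counts in the treated group were at least 6.45-fold above the floor of 3 counts over the untreated group (adjusted p = 0.0149, edgeR). Positions 15 and 25 each held 5 and 0 counts in the untreated libraries, also below the minimum count for a test. All 3 sites could thus be tested only through their treated counts, so their shared direction is largely set by the minimum count. By edgeR no site passed without untreated replicate 1 or without untreated replicate 2 (6 and 1 had an unadjusted p below 0.05), or with TMM scaling (6 at an unadjusted p below 0.05), where the adjusted p-values of positions 15, 16 and 25 were 0.0644, 0.0508 and 0.0575. By DESeq2's Wald test positions 15, 16, 25 and 26 passed.

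Positions 26 and 37 did not pass in DUS2L. The log2 fold change was 1.63 ± 0.73 at position 26 (adjusted p = 0.0710, edgeR) and -0.09 ± 0.34 at position 37 (adjusted p = 0.862, edgeR). At position 37 it was 0.41 with TMM scaling, also not called. As a share of all sense counts, position 37 of tRNA-Phe held 0.168% and 0.155% in untreated and 0.152% and 0.153% in treated DUS2L libraries. The rest of tRNA-Phe held 75 and 63 counts, or 0.0577% and 0.0366%, in untreated and 541 and 498, or 0.146% and 0.137%, in treated libraries. The higher share of tRNA-Phe in treated DUS2L therefore lay outside position 37, and was made up mostly of positions 15, 16, 25 and 26.

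**Figure D3:**
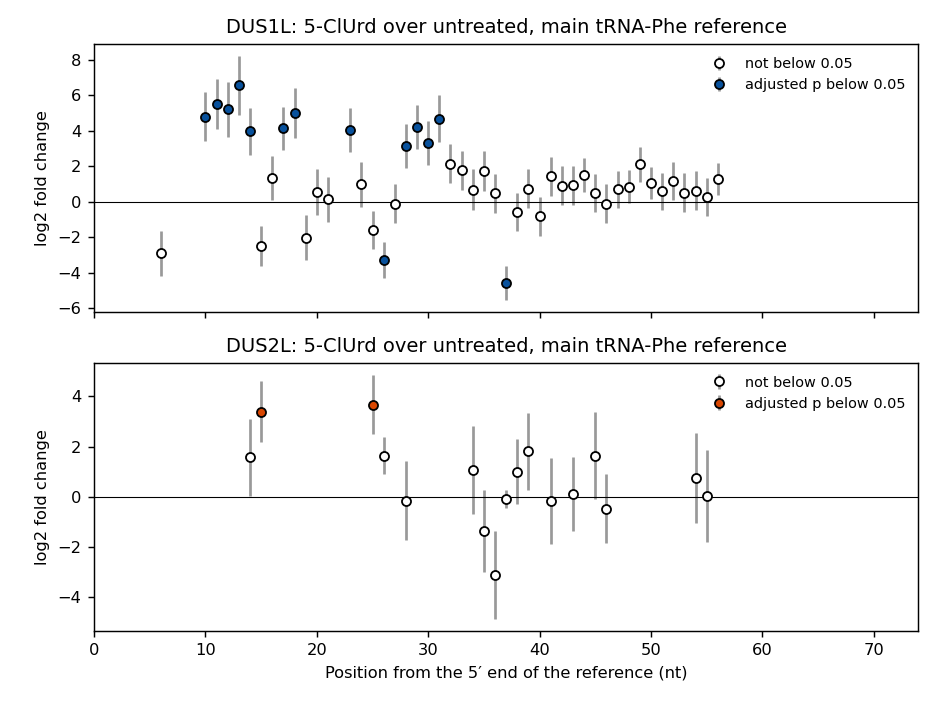
Log2 fold change with 5-ClUrd at each tested position of the Phe-GAA-1 reference (vertical bars, SE) for DUS1L (top) and DUS2L (bottom); positions with no count in 1 of the groups are left out, and filled points passed the test. Positions 26 and 37 are the filled points below 0 for DUS1L, and positions 15 and 25 the filled points for DUS2L.

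Between the enzymes, 61 of 68 tRNA-Phe sites were lower in treated DUS2L than in treated DUS1L and none was higher, where 52.4% of all sites passed in either direction and 29.2% were lower. The 3 with the largest fitted change, positions 31, 23 and 49, had no count in treated DUS2L and 585 and 152, 458 and 158, and 261 and 88 counts in treated DUS1L. They were at least 132-fold, 110.2-fold and 62.4-fold lower, against a floor of 3 counts over the DUS2L group. The minimum of 10 counts was reached by all 68 sites over the DUS1L libraries but by only 20 over the DUS2L libraries, and 19 of the 61 had no count in treated DUS2L. The direction of this count is therefore largely set by which sites could be tested, and it does not add to the family result. Position 37 was among the 7 sites that did not pass, with a log2 fold change of -0.20 ± 0.45 (adjusted p = 0.731, edgeR) and of 0.69 by DESeq2's Wald test, not called either. It was the highest site of both treated DUS1L libraries, and whether the highest site count limited this value was not tested. Positions 15, 16, 25 and 26 were lower in treated DUS2L by log2 fold changes of -2.99 ± 0.65, -4.16 ± 0.92, -2.74 ± 0.70 and -1.65 ± 0.55, with adjusted p-values from edgeR of 3.03e-05, 4.27e-05, 0.000372 and 0.00743. By DESeq2's Wald test only position 16 of these 4 passed (adjusted p = 0.0140), and 3 of the 4 calls, all but that of position 16, were lost without treated DUS1L replicate 2. The call of position 26 was also lost without either treated DUS2L library and with TMM scaling (adjusted p = 0.0551, edgeR).

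Without 5-ClUrd, 37 of 68 sites were lower in DUS2L and none was higher, where 27.3% of all sites passed and 12% were lower. These were the same 68 tested sites, and the direction of this count is likewise largely set by the minimum count, with 15 of the 37 at no count in untreated DUS2L. Positions 27, 19 and 6 had the largest fitted changes and no count in untreated DUS2L. Position 27 held 82 and 15 counts in untreated DUS1L, at least 64.4-fold more than the floor, while positions 19 and 6 held 0 and 19 counts each, all from untreated DUS1L replicate 2. Position 37 was lower in untreated DUS2L by a log2 fold change of -4.67 ± 0.52 (adjusted p = 5.82e-16, edgeR) and of -2.27 without untreated DUS1L replicate 2. The number of called sites was 15 without untreated DUS1L replicate 1.

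Grouped by region, the anticodon loop held the largest mean share of tRNA-Phe counts in each group, although in treated DUS1L replicate 1 the anticodon stem was higher (21.3% against 19.4%). Its share was 40.8% and 53.3% in untreated DUS1L, 19.4% and 23.9% in treated DUS1L, 78.6% and 84.8% in untreated DUS2L, and 54.3% and 55.0% in treated DUS2L. The treated libraries were lower than the untreated ones for both enzymes, with no overlap. In the other tRNAs pooled, the anticodon loop held 28.2% ± 3.55 (SD, n = 2), 17.7% ± 2.04, 19.2% ± 0.00376 and 12.3% ± 2.33 of counts in the same order of groups. For the other tRNAs, here and below, the same region borders were counted from the 5′ end of each reference without alignment. The pooled values may therefore cover unlike parts of the molecules.

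The D loop held 1.69% and 15.2% of tRNA-Phe counts in untreated DUS1L and 14.2% and 15.1% in treated DUS1L, which overlapped. It held 3.06% and 0.303% in untreated and 11.4% and 9.49% in treated DUS2L, with no overlap. In the other tRNAs pooled, the D loop held 12.7% ± 2.34 (SD, n = 2), 19% ± 0.299, 20.9% ± 0.610 and 21.6% ± 0.257. The D arm stem of tRNA-Phe held 3.59% and 6.51%, 13.1% and 13.8%, 2.04% and 0, and 9.05% and 7.78% in the same order, higher in the treated libraries of both enzymes. In the other tRNAs pooled it held 5.86% ± 0.987 (SD, n = 2), 14.8% ± 0.768, 8.50% ± 0.724 and 12.4% ± 0.324, also higher with 5-ClUrd for both enzymes. The anticodon stem of tRNA-Phe was higher with 5-ClUrd in DUS1L, at 21.3% and 16.5% against 11.5% and 2.02%, and overlapped in DUS2L, at 4.16% and 3.89% against 5.10% and 2.73%.

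The hinge, taken as positions 26 and 27, held 16.8% and 20.3% in untreated and 6.78% and 9.29% in treated DUS1L, and 9.86% and 6.67% in untreated and 18.5% and 19.5% in treated DUS2L. Position 27 is also the first paired base of the anticodon stem, and its counts were left out of the anticodon stem share. In the other tRNAs pooled, the hinge held 19% ± 10.0 (SD, n = 2), 11.2% ± 0.269, 16.9% ± 0.741 and 12.6% ± 3.01 in the same order of groups. The 3′ end held no count in any library. With 2 libraries against 2, an exact two-sided permutation test cannot give a p under 0.33, which is the value of every comparison without overlap (adjusted p = 0.580 over 40 comparisons of a region, exact permutation). The region shares are therefore given as values and not as calls.

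**Figure D4:**
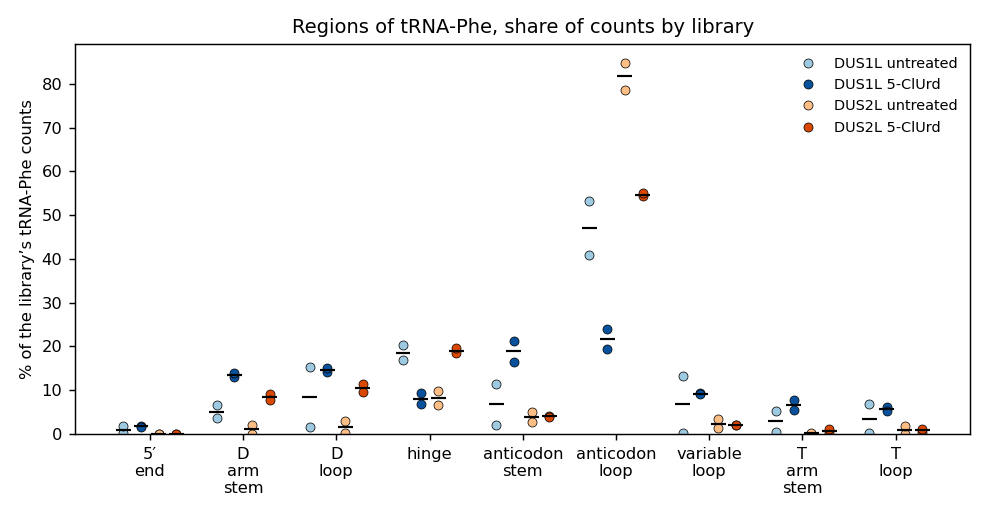
Share of the tRNA-Phe counts of a library in each region of the tRNA (points, 1 per library; line, mean of the group of 2). The anticodon loop has the highest mean in all groups and is lower with 5-ClUrd for both enzymes, while the hinge is lower with 5-ClUrd in DUS1L and higher in DUS2L.

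The base at a site and the base after it were read from the sequence shown. Sites on G held 71.4% ± 20.3 (SD, n = 2) of the counts of the Phe-GAA-1 reference in untreated DUS1L, 36.2% ± 0.878 in treated DUS1L, 89.2% ± 2.71 in untreated DUS2L and 80.0% ± 3.87 in treated DUS2L, while G makes up 30.2% of the 53 positions with counts. Positions 26 and 37 are both G and carry most of it, except in treated DUS1L, where they held 4.81% and 5.07% of the tRNA-Phe counts. Sites followed by a T, as positions 15, 16 and 26 are, held 37.7% ± 1.73, 33.8% ± 2.89, 12.4% ± 3.30 and 31.3% ± 0.424 in the same order, against 24.5% of positions. In DUS2L the share before a T was higher in both treated than in both untreated libraries. The same held for sites on C (mean 8.68% against 1.48%), on T (6.86% against 3.56%) and before a G (11.2% against 4.15%). Sites on G and sites before an A were lower in both treated libraries.

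In the authors' deposited peak lists tRNA-Phe had 3 of 126 and 1 of 37 peaks in untreated DUS1L, and 5 of 335 and 5 of 256 in treated DUS1L. It had 0 of 200 and 0 of 201 in untreated DUS2L, and 2 of 225 and 1 of 300 in treated DUS2L. The larger number in treated DUS1L was thus a smaller part of all listed peaks. Of the 17 tRNA-Phe peaks 7 lay on the Phe-GAA-1 reference and 10 on the others, which hold few counts. The latter came from DUS1L libraries, and included all 5 of treated DUS1L replicate 1, among them positions 2 to 5 of Phe-GAA-3-1 (score 266) and 37 to 40 of Phe-GAA-4-1 (score 255). On the Phe-GAA-1 reference a peak at positions 25 to 26 was listed in untreated DUS1L replicate 2 (score 268), treated DUS1L replicate 2 (score 1990) and both treated DUS2L libraries (scores 283 and 275). A peak at positions 15 to 16 was listed in treated DUS1L replicate 2 (score 1555) and treated DUS2L replicate 1 (score 101). Position 37 was in a listed peak of this reference in untreated DUS1L replicate 1 only (positions 36 to 38, score 1624). Each score equalled the sum of the site counts in the peak, so the peaks are not independent of the values above.

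Other families were set beside tRNA-Phe-GAA. The 3 whose share followed it most closely over the 8 libraries were the arginine tRNAs Arg-ACG (Pearson r = 0.982), Arg-CCT (r = 0.951) and Arg-CCG (r = 0.907), computed on log2 shares after adding 1 count. This is a description, since the libraries fall into 2 enzymes and share depth and file making with them. Arg-ACG held 6.77% ± 2.10 (SD, n = 2) of sense counts in untreated DUS1L, 3.50% ± 0.108 in treated DUS1L, 0.356% ± 0.0373 in untreated DUS2L and 0.364% ± 0.0302 in treated DUS2L.

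The tRNAs of the aromatic amino acids were Phe-GAA, Tyr-GTA, Tyr-ATA and Trp-CCA. With 5-ClUrd none of the 4 passed in DUS1L by edgeR, and 1 had an unadjusted p below 0.05 (median log2 fold change -0.15, all families 1.35), where 22.6% of all families were higher. In DUS2L 3 of the 4 rose (median 1.42, all families 0.86), all but Phe-GAA, where 52.7% of all families rose. Of these, Tyr-ATA held 0 and 1 counts in untreated and 29 and 160 in treated DUS2L libraries, so it could be tested only through its treated counts. With DESeq2 size factors in edgeR it was not called (adjusted p = 0.0585, edgeR). Tyr-GTA, which decodes tyrosine, rose in DUS2L by a log2 fold change of 2.04 ± 0.23 (adjusted p = 0.000313, edgeR) and Trp-CCA by 0.79 ± 0.31 (adjusted p = 0.0497, edgeR). With TMM scaling the value of Trp-CCA was 0.15 and was not called (adjusted p = 0.590, edgeR), while in DUS1L Trp-CCA was called at -2.29 (adjusted p = 0.0199, edgeR). All 4 were lower in DUS2L than in DUS1L without 5-ClUrd (median -4.49, all families 2.45), where 41.8% of families were lower. With 5-ClUrd 3 of 4 were lower (median -2.28, all families 0.49), where 27.3% of families were. With TMM scaling the calls of Trp-CCA without 5-ClUrd and of Tyr-ATA with it were lost (adjusted p = 0.0767 and 0.0527, edgeR).

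A list of tRNAs with a G at position 34 held Phe-GAA, Tyr-GTA, His-GTG, Asn-GTT, Asp-GTC and Cys-GCA. It is not complete, since Ser-GCT, Gly-GCC and Ile-GAT have the same base there. With 5-ClUrd 2 of the 6 rose in DUS1L (Asn-GTT and Asp-GTC, median 1.15), against 22.6% of all families, and none fell. In DUS2L 3 rose (Tyr-GTA, Asn-GTT and Cys-GCA), 1 fell (His-GTG) and 2 did not pass (median 0.69), which is near the 52.7% and 23.6% of all families that rose and fell. With TMM scaling the calls of Asn-GTT in both enzymes and of Asp-GTC in DUS1L were lost (adjusted p = 0.683, 0.414 and 0.134, edgeR), and Asp-GTC was called in DUS2L at -1.03 (adjusted p = 0.000388, edgeR). Without 5-ClUrd, 3 were lower in DUS2L than in DUS1L (Phe-GAA, Tyr-GTA and Cys-GCA) and 2 were higher (Asp-GTC and His-GTG), where 41.8% of families were lower and 47.3% higher. Asp-GTC was higher by a log2 fold change of 7.45 ± 0.30 (adjusted p = 9.74e-07, edgeR), so the list did not move in 1 direction between the enzymes.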

How the data were processed

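The deposited site lists give a count per position and reference for each of 8 libraries; per the submitters' processing notes STAR 2.7.0f and hg38 were used, and the peak caller, the handling of molecular identifiers and how a site relates to the crosslinked base are not given in the sources at hand. Peak scores in the authors' deposited lists are sums of these counts. Sense-strand counts were summed per family and per site. Families or sites with at least 10 counts over the libraries compared were tested with edgeR 4.0.16 in R 4.3.3 (quasi-likelihood, library totals as size, Benjamini-Hochberg adjustment over all families or sites, threshold 0.05; SE from the F statistic); the code was tested on simulated data, and DESeq2 1.42.0 was an alternative. Region shares were compared by exact permutation in Python 3.11.15. Intervals are 95% Wilson intervals (scipy 1.17.1), and the floor for a fold is 3 counts over a group. Named positions were, per group, the 5 with the highest mean share; of the called sites, the 3 with the largest change in each direction; every reference with counts; and the 3 families with the highest correlation. The members and lists were chosen with earlier results of these data known. The libraries of a group are biological replicates per the labels. Antisense counts were left out of all tests. All 10 gene names matched RefSeq symbols.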

Additional observations from a re-analysis of the deposited data

Results flagged for a closer look

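The share of tRNA-Phe counts in the hinge (positions 26 and 27) moved in opposite directions with 5-ClUrd for the enzymes. In DUS1L both treated libraries lay below both untreated ones, with a difference of the means of -10.5 percentage points. In DUS2L both treated libraries lay above both untreated ones, with a difference of 10.7 percentage points. The difference between the enzymes was not tested. In treated DUS1L position 26 of the Phe-GAA-1 reference held 1173 and 1031 counts, where the highest site of the library held 1269 and 1061. In treated DUS2L it held 190 and 198, where the highest site held 1428 and 1436. Whether the highest site count limited the hinge share in treated DUS1L was not tested. In the other tRNAs pooled the mean hinge share was lower with 5-ClUrd for both enzymes, at 11.2% against 19% in DUS1L and 12.6% against 16.9% in DUS2L.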

How the results depend on the processing

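With 2 libraries a group and 7369 counts in 1 of them, depth limits every untreated DUS1L value and all positions with no untreated count. Both family comparisons of the enzymes kept their direction and call under every alternative run. The run without sites above 500 counts removed a larger part of the tRNA-Phe counts in DUS2L than in DUS1L, so it does not add to this. The family effect of 5-ClUrd in DUS1L passed with TMM (-2.31), DESeq2 size factors in edgeR (-2.64), DESeq2's Wald test (-2.64) and without replicate 1 of the untreated (-2.06) or treated group (-1.48); it was -0.89, uncalled, with sites above 500 counts left out, and leaving out 1 library gave -2.06 to 0.23. In DUS2L it changed sign, uncalled, with TMM (-0.16), DESeq2 size factors (-0.28) and the Wald test (-0.28), and leaving out 1 library gave 0.38 to 0.62. The difference of the 2 effects lay between 0.27 and 2.55 without 1 library. Without 1 library, called sites numbered 6 to 30 for 5-ClUrd in DUS1L (18 with all), 0 to 3 in DUS2L (3 with all), 53 to 65 between treated enzymes and 15 to 40 between untreated enzymes. TMM gave 10 called sites in DUS1L and 0 in DUS2L, and a minimum count of 1 gave 0 in DUS2L.

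The replicate number as a block left the family calls unchanged and gave 9 called sites in DUS1L; the family effect in DUS1L was then -0.92 (adjusted p = 0.0977, edgeR). The replicate differences of treated and untreated libraries correlated by 0.310 in DUS1L and 0.210 in DUS2L over families, and with 2 pairs an enzyme the numbers were not taken to pair the libraries.

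Shifting region borders by 1 nt toward the 3′ end takes position 26 out of the hinge: the treatment difference was then 3.40 points in DUS1L and 0.55 in DUS2L, and DUS2L minus DUS1L was -3.62 treated and -0.76 untreated. Counting each position once gave, for 5-ClUrd in DUS1L, -2.51 (D loop), -2.68 (hinge) and -7.39 (anticodon loop) points; in DUS2L, -2.78 (hinge) and -9.72 (anticodon loop); for DUS2L minus DUS1L treated, 3.90, 2.02 and 2.89 (D loop, hinge, anticodon loop); and untreated, 2.11 (hinge) and 5.22 (anticodon loop). Without 1 library the D loop difference in DUS1L ran from -0.55 to 13 points. The cause of these changes was not tested. Shares without the Phe-GAA-1 reference were not run, since 0 to 42 counts remained in untreated DUS1L and 2 to 7 in DUS2L libraries.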

Other observations

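On the antisense strand of the tRNA-Phe references the libraries held 1 and 0 counts in untreated DUS1L, 8 and 12 in treated DUS1L, 7 and 6 in untreated DUS2L, and 4 and 17 in treated DUS2L. Between the replicates of a group the counts over tRNA-Phe positions differed by a chi-square per degree of freedom of 34.3 in untreated and 25.5 in treated DUS1L, and of 2.44 in untreated and 1.60 in treated DUS2L, where counting error alone gives about 1.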
